A study of Mus musculus with 80 samples.

Results

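The inhibitors of metalloproteinases, Timp1, Timp2, Timp3 and Reck, were followed in the skeleton of juvenile mice that lacked gelatinases. They were taken by gene symbol as 4 of the 14688 genes of the count table. The mice were C57BL/6J females aged 21 days and either WT, MMP2-/-, MMP9-/- or MMPdKO, the last without both enzymes and bred from crosses of the 2 knockout lines. Bulk RNA was taken from the growth plate of the tibia, from calvaria (1 frontal bone) and from femoral cortical bone with its marrow flushed out. The study left the periosteum on calvaria and cortical bone and the suture tissue on calvaria. Each of the 12 groups held 7 libraries, except MMP2-/- cortical bone with 5, MMP2-/- growth plate with 6 and MMPdKO cortical bone with 6. The 80 libraries came from 33 mice, and within a group each library was a different mouse.

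TIMPs are small secreted proteins that plug the catalytic cleft of matrix metalloproteinases. Timp1 binds the precursor of MMP9, and Timp2 binds that of MMP2 and holds it at the membrane protease MMP14, which starts its activation. Timp3 stays bound to the matrix and also inhibits ADAM and ADAMTS proteases. Reck is an inhibitor anchored in the cell membrane that acts on MMP2, MMP9 and MMP14 and also serves as a receptor part for WNT7 signals. Growth plate cartilage is resorbed and replaced by bone, a step in which MMP9 and MMP13 take part, whereas calvaria forms bone without a cartilage template.

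All members are protein coding in the GRCm38 build. Timp1 (ENSMUSG00000001131) spans chrX:20870166-20874735 on the plus strand, inside the synapsin gene Syn1 of the other strand. Timp2 (ENSMUSG00000017466) spans chr11:118301069-118355740 on the minus strand. Timp3 (ENSMUSG00000020044) spans chr10:86300372-86349506 on the plus strand, inside Syn3 of the other strand, and 1 of its exons overlaps a Syn3 exon. Reck (ENSMUSG00000028476) spans chr4:43875530-43944806 on the plus strand. Whether counting used the strand is not given in the sources used here, but Syn1 had 107 counts over all libraries against 17232 for Timp1. Syn3 was not among the genes of the count table, so no such comparison could be made for Timp3.

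Because Timp1 and Timp2 moved together between libraries of the same group and Timp3 did so less, the promoters of these 3 genes are shown, from 250 bases before to 50 after the start of transcription (RefSeq, GRCm38.p6, each read along its gene). The Timp2 window lies wholly inside the gene span given above. The RefSeq start used for Timp2 is thus downstream of where that span starts on the minus strand. Capitals mark the motifs found on either strand: the GC box GGGCGG, the CCAAT box CCAAT, and TGAGTAA, an element related to AP-1 sites. AP-1 (TGANTCA) and the TATA box (TATAAA) were searched as well.
Timp1, chrX:20869916-20870215, plus strand: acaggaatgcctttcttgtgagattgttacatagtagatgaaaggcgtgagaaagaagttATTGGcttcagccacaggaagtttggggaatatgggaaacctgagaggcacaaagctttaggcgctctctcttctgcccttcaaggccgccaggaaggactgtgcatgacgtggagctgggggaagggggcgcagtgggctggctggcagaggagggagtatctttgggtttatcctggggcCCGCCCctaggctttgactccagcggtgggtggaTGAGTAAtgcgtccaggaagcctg
Timp2, chr11:118355362-118355661, minus strand: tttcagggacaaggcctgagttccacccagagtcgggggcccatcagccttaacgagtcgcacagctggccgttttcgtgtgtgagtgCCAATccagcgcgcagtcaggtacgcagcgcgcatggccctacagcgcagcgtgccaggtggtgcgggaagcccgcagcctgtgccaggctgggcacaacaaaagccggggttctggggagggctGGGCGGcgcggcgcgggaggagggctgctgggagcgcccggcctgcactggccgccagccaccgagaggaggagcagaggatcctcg
Timp3, chr10:86300162-86300461, plus strand: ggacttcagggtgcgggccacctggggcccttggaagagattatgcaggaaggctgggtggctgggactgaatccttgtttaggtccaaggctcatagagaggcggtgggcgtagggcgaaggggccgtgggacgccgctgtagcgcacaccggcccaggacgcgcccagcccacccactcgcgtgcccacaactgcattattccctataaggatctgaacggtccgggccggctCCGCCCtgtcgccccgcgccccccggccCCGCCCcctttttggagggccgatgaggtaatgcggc
None of the 3 windows held TATAAA, found in 13.6% of 32817 promoters of this length, or TGANTCA, found in 7.81%. GGGCGG, found in 35.6% of promoters, stood once in Timp1 and in Timp2 and at 2 places in Timp3. CCAAT, found in 37.4%, stood in Timp1 at 190 bases and in Timp2 at 162 bases before the start, and was not in the Timp3 window. TGAGTAA, found in 2.68%, stood in Timp1 only among these 3, with its first base 27 bases after the start. G and C made up 55.0% of the Timp1 window, 68.7% of that of Timp2 and 67.0% of that of Timp3, with a median of 52.7% over all promoters. Reck did not move with Timp1 or Timp2 between libraries of the same group (r = -0.05 and 0.04). Its window, not printed, held GGGCGG at 3 places and CCAAT at 31 bases before the start. Such matches describe the letters of these windows.

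The libraries held 114408 to 1921698 counts each (median 651164.5), and 1 library, of MMP9-/- cortical bone, was under 200000. The targeted genes followed the labels: the group means of Mmp2 were 17.4 to 33.1 CPM (counts scaled to library size, with TMM factors that set libraries to a common scale) in mice without MMP2 and 354.6 to 571.4 in the others, and those of Mmp9 were 119.5 to 405.0 without MMP9 and 848.7 to 2639 in the others. Growth plate chondrocyte markers (12 genes such as Col2a1 and Acan) were all lower in WT calvaria and in WT cortical bone than in WT growth plate, and osteoblast markers were present in every group. Other cells were present too: the 15 skeletal muscle markers together took between 385.4 and 64750 CPM of a library.

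Over the 80 libraries Timp1 had 33 to 692 counts (median 182.5), Timp2 47 to 1565 (415), Timp3 6 to 377 (76) and Reck 2 to 52 (13), so values of Reck carry the largest counting error. Levels are compared within a gene. The highest group mean was 3.17 times the lowest for Timp1, 2.17 times for Timp2, 2.32 times for Timp3 and 1.63 times for Reck. Timp1 was highest in MMPdKO growth plate (559.1 ± 163.6, SD, n = 7) and lowest in MMP9-/- calvaria (176.3 ± 39.2, n = 7). Timp2 and Timp3 were both highest in MMP2-/- calvaria, at 947.4 ± 139.6 and 174.8 ± 21.9 (n = 7). Neighbouring groups in these orders overlapped within their SD, and the groups at either end were compared only along the contrasts below. In bulk samples fewer cells of a type and less RNA per cell cannot be told apart.

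**Figure D1:**
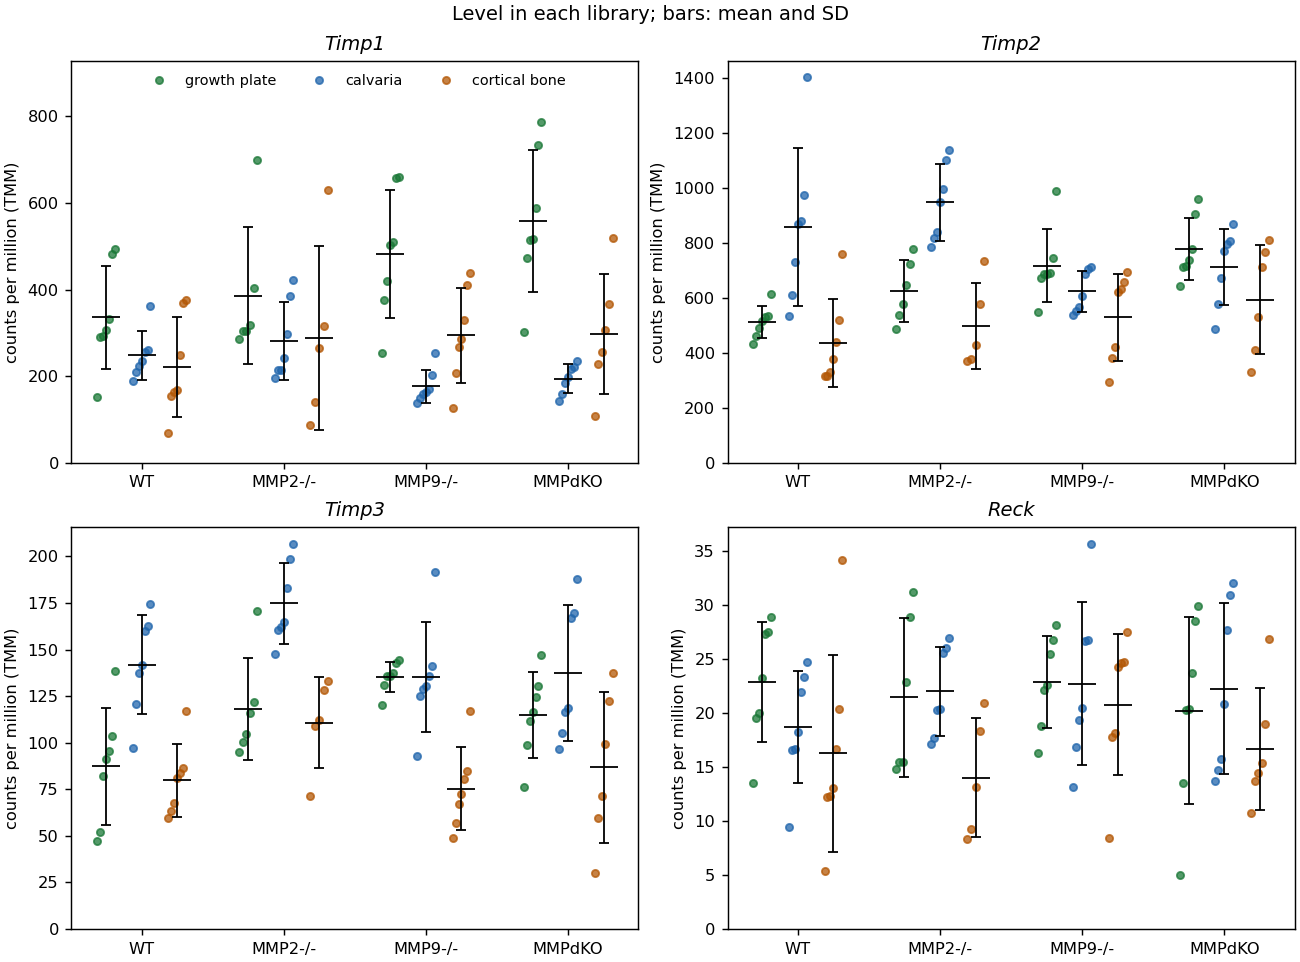
Level of each gene in CPM (linear axes from 0), in 12 groups ordered by genotype and, within it, growth plate, calvaria and cortical bone. Points are libraries, wide bars the mean and whiskers the SD. Timp1 is high in growth plate and low in calvaria of MMP9-/- and MMPdKO mice, Timp3 is lowest in cortical bone of every genotype, and Reck overlaps throughout.

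The first comparison asked whether the 3 skeletal sites of WT mice differ in these inhibitors. Timp2 and Timp3 were higher in calvaria than in either long bone sample, while no difference passed the test for Timp1 or Reck. In the edgeR quasi-likelihood fit, 4 of 12 WT tests passed an adjusted p (Benjamini-Hochberg) of 0.05: 2 of the 4 members between calvaria and growth plate, where 5.24% of 11307 genes did, 2 between cortical bone and calvaria, where 6.83% did, and 0 between cortical bone and growth plate, where 2.97% did. In that last contrast Timp1 and Reck had an unadjusted p of 0.0402 and 0.0419 and adjusted p of 0.273 and 0.28, and DESeq2 and limma-trend also passed 4 of the 12 tests.

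Timp2 in WT ranged from 532.8 to 1405 CPM in calvaria (median 868.0), from 434.2 to 615.5 in growth plate (514.8) and from 315.9 to 759.4 in cortical bone (377.5). The lowest calvaria libraries lay among the upper values of the other sites. Cortical bone was 1.97-fold lower than calvaria (log2 -0.98 ± 0.18, SE, adjusted p = 8.94e-05), with 6 of 7 cortical libraries below every calvaria library. Calvaria was 1.68-fold higher than growth plate (log2 0.75 ± 0.18, adjusted p = 0.00432). Cortical bone and growth plate differed by log2 -0.23, with a 95% interval from -0.59 to 0.13 (adjusted p = 0.567).

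Timp3 had the same order of means. It ranged from 97.0 to 174.4 CPM in WT calvaria (median 141.8), from 47.3 to 138.7 in growth plate (91.5) and from 59.5 to 117.2 in cortical bone (80.9). Cortical bone was 1.79-fold lower than calvaria (log2 -0.84 ± 0.19, adjusted p = 0.0018), and again 6 of 7 cortical libraries lay below every calvaria library. Calvaria was 1.59-fold higher than growth plate (log2 0.67 ± 0.19, adjusted p = 0.0221), a call that was lost when 1 library, WT growth plate replicate 2 or 7 or WT calvaria replicate 2 or 6, was left out (adjusted p = 0.0505 to 0.0837).

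These WT calls were not kept in every subset of the mice. In the descriptions, 5 WT libraries carry the number 20 where the others carry 21, and they include the 2 highest calvaria values of Timp2 (1405 and 973.2). Without them the cortical values fell by 0.61 for Timp2 (adjusted p = 0.121) and by 0.70 for Timp3 (adjusted p = 0.0973) against calvaria, the calvaria values were 0.50 (adjusted p = 0.189) and 0.45 (adjusted p = 0.306) above growth plate on the log2 scale, and 0 of 12 tests passed. Each WT group was also smaller without those libraries, so the choice of mice and the loss of libraries cannot be told apart. With the mouse as a block, WT mice were fitted alone, and the 2 of 9 that gave only 1 tissue were left out. Timp3 then passed between cortical bone and calvaria (log2 -0.80, adjusted p = 0.0461), whereas Timp2 there (-0.88, adjusted p = 0.082) and both genes between calvaria and growth plate (0.62 and 0.68, adjusted p = 0.21 and 0.0738) did not. In the same mice without the block, Timp2 and Timp3 passed between cortical bone and calvaria (adjusted p = 0.0188 and 0.0343).

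The same sites differed in their connective tissue and muscle. The summed level of 13 measured fibrous and periosteal markers (such as Postn, Dcn and Col3a1) was 2417 to 6955 CPM in WT calvaria, 982.5 to 1617 in growth plate and 671.3 to 2010 in cortical bone, with no marker at 0 in any group. In WT cortical bone 8 of the 13 were lower than in calvaria, and in WT calvaria 6 were higher than in growth plate. Smooth muscle and pericyte markers summed to 599.2 to 1608 in calvaria and 216.3 to 597.4 in cortical bone. With the mean log2 level of the fibrous markers in the fit, an alternative chosen after seeing the data, the Timp2 values turned to 0.06 for cortical bone against calvaria (adjusted p = 0.913) and to -0.25 for calvaria against growth plate (adjusted p = 0.399), and those of Timp3 shrank to -0.31 and 0.18 (adjusted p = 0.513 and 0.682). All 4 calls were thus lost, while Timp1, which had not passed, then did between calvaria and growth plate (-1.30, adjusted p = 0.00937). The summed fibrous markers of calvaria overlapped those of neither other site, so this fit separates site from score poorly. With a skeletal muscle score in place of the fibrous score all 4 calls were kept.

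Timp1 in WT ranged from 151.0 to 493.8 CPM in growth plate (median 306.8), from 188.8 to 363.1 in calvaria (234.5) and from 70.0 to 375.6 in cortical bone (168.2). The 3 ranges overlapped widely. Calvaria differed from growth plate by log2 -0.43, with an interval from -0.99 to 0.13 (adjusted p = 0.515), and cortical bone from growth plate by -0.60 (-1.16 to -0.04).

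**Figure D2:**
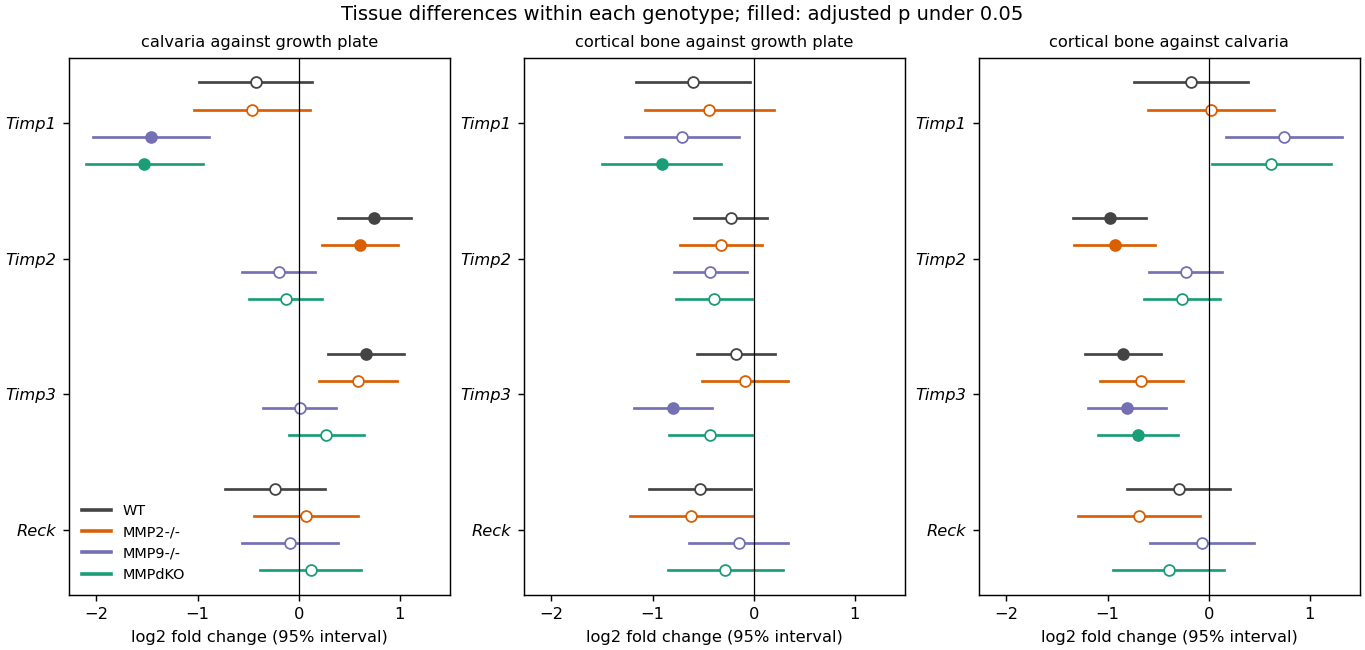
Log2 fold change between tissues (points, with 95% intervals) for each gene and genotype from the fit over all 80 libraries. Filled points passed an adjusted p of 0.05. Timp3 lies left of 0 in all 4 genotypes for cortical bone against calvaria, and Timp1 lies farthest left for calvaria against growth plate in MMP9-/- and MMPdKO mice.

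In the knockouts the same tissue contrasts passed in 8 of 36 tests, and 18 had an unadjusted p under 0.05. Timp3 was again lower in cortical bone than in calvaria, in the test in MMP9-/- and MMPdKO mice and by its values in MMP2-/- mice. In MMP2-/- mice its cortical values were 71.2, 108.8, 112.1, 128.3 and 133.0 CPM, all below the lowest of 7 calvaria libraries (147.7 to 206.9, median 164.8). That difference did not pass (log2 -0.67 ± 0.21, adjusted p = 0.0592), though the libraries did not overlap, as was so for 2.33% of all genes. It passed with DESeq2 (adjusted p = 0.0425).

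In MMP9-/- mice Timp3 ranged from 48.6 to 117.0 in cortical bone (median 72.6) and from 92.6 to 191.8 in calvaria (130.6). Cortical bone was 1.75-fold lower (log2 -0.81 ± 0.20, adjusted p = 0.00601), in a contrast that 1 of the 4 members and 6.24% of all genes passed. It was also 1.74-fold lower than in MMP9-/- growth plate (log2 -0.80 ± 0.20, adjusted p = 0.00337), where Timp3 lay in the narrow range of 120.2 to 144.6 and did not overlap cortical bone. There, 1 of 4 members and 10.1% of all genes passed, and 2.15% of all genes did not overlap. This cortical group holds the shallowest library, in which Timp3 had 6 counts. Without it the values were -0.77 and -0.76 (adjusted p = 0.0127 and 0.00809). With the mean log2 level of neutrophil markers in the fit the difference from growth plate became -0.56 (adjusted p = 0.235) and that from calvaria -0.81 (adjusted p = 0.00319).

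In MMPdKO mice Timp3 ranged from 30.2 to 137.2 in cortical bone (median 85.2) and from 96.5 to 187.9 in calvaria (118.7), and 3 of 6 cortical libraries lay below every calvaria library. The difference was log2 -0.70 ± 0.21 (adjusted p = 0.0292, 1 of 4 members and 4.84% of all genes passing). Leaving out any 1 of 6 libraries (MMPdKO calvaria replicate 4, 5 or 6, or cortical replicate 2, 3 or 5) ended the call (adjusted p = 0.0536 to 0.145). In 20 mice that gave both bones, Timp3 was higher in calvaria than in cortical bone in 20 of 20, by a median of 0.80 on the log2 scale (0.16 to 1.67). With the mouse as a block the Timp3 difference passed in WT, MMP9-/- and MMPdKO mice and not in MMP2-/- mice (adjusted p = 0.0848). Fits of 1 genotype alone without the block left out no MMP2-/- or MMPdKO mouse. In them the difference passed in MMP2-/- mice (-0.66, adjusted p = 0.0395) and not in MMPdKO mice (-0.68, adjusted p = 0.113). With only the 2 groups compared in the fit it likewise passed in MMP2-/- (adjusted p = 0.0275) and not in MMPdKO mice (adjusted p = 0.167).

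As in WT, the summed fibrous markers were higher in calvaria than in cortical bone. The summed skeletal muscle markers in MMP9-/- mice were 17320 to 32390 CPM in calvaria and 1907 to 23590 in cortical bone. In WT mice they overlapped widely, at 3612 to 57180 in calvaria and 385.4 to 17950 in cortical bone. With the muscle score in the fit the Timp3 differences in MMP9-/- and MMPdKO mice became -0.46 and -0.41 (adjusted p = 0.282 and 0.383), and with the fibrous score -0.36 and -0.27 (adjusted p = 0.308 and 0.516). The difference in MMP2-/- mice, which had not passed in the main fit, became -0.438 with the muscle score (adjusted p = 0.402). It was -0.149 with the fibrous score (adjusted p = 0.838) and -0.566 with the neutrophil score (adjusted p = 0.145).

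Timp1 showed another pattern, a high level in growth plate and a low one in calvaria of the 2 genotypes without MMP9. In MMP9-/- mice it ranged from 254.1 to 659.2 in growth plate (median 503.0) and from 138.2 to 252.6 in calvaria (163.6), with no overlap. Calvaria was 2.75-fold lower (log2 -1.46 ± 0.29, adjusted p = 9.49e-05). In MMPdKO mice it ranged from 301.3 to 786.0 in growth plate (517.1) and from 143.2 to 234.3 in calvaria (198.9), again with no overlap, and calvaria was 2.88-fold lower (log2 -1.53 ± 0.29, adjusted p = 4.16e-05). These 2 contrasts moved much of the transcriptome: 1 of 4 members passed in each, where 26.2% of all genes passed in MMP9-/- and 29.6% in MMPdKO mice, and 8.15% and 8.48% did not overlap. Both calls were kept whichever library was left out (adjusted p at most 0.000418 and 0.000215).

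Among 24 mice with both tissues, Timp1 was lower in calvaria than in growth plate in 24 of 24, at a median log2 ratio of -0.93 (-2.46 to -0.07). In the 6 WT mice the median log2 ratio was -0.42, in the 6 MMP2-/- mice -0.50, in the 6 MMP9-/- mice -1.62 and in the 6 MMPdKO mice -1.29. The change against WT did not pass in a test of the change itself: the difference of differences was -1.03 ± 0.41 in MMP9-/- (adjusted p = 0.227 by edgeR) and -1.10 ± 0.41 in MMPdKO mice (adjusted p = 0.133 by edgeR). In MMPdKO mice Timp1 was also 1.88-fold lower in cortical bone (107.5 to 518.9, median 282.0) than in growth plate (log2 -0.91 ± 0.30, adjusted p = 0.0347; 1 of 4 members and 12.2% of all genes). That call was lost without any 1 of 6 libraries, growth plate replicate 3, 6 or 7 or cortical replicate 2, 3 or 4 (adjusted p = 0.0534 to 0.154). In MMP9-/- mice the corresponding value was -0.71 (adjusted p = 0.104). In a fit of MMP9-/- mice alone, without the 1 mouse that gave 1 tissue, it passed without a block (-0.71, adjusted p = 0.0474). It also passed there with the mouse as a block (-0.79, adjusted p = 0.00939). Timp1 in MMP9-/- cortical bone was 0.75 above calvaria in the main fit (adjusted p = 0.117). In the fit of MMP9-/- mice alone it was 0.76 above without the block (adjusted p = 0.05, not past the threshold) and 0.87 with the block (adjusted p = 0.00355).

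Markers of blood and resorbing cells also differed between growth plate and calvaria. Neutrophil markers (11 genes such as S100a8 and Ngp) summed to 796.4 to 4689 CPM in MMP9-/- growth plate and 6018 to 14650 in MMP9-/- calvaria, and 10 of the 11 were higher in calvaria. In MMPdKO mice they summed to 621.5 to 3444 and 5775 to 11140. Osteoclast markers, of which 7 were measured, among them the deleted Mmp9, ran the other way, with 6 of 7 lower in calvaria of both genotypes. They summed to 10180 to 17290 in growth plate and 3606 to 6417 in calvaria of MMP9-/- mice. In WT mice the osteoclast markers summed to 7486 to 17170 in growth plate and 3926 to 7117 in calvaria. The neutrophil markers of WT mice summed to 3235 to 9096 in growth plate and 4280 to 8168 in calvaria. The neutrophil sums of growth plate and calvaria overlapped in neither genotype without MMP9. Those of MMPdKO cortical bone (4917 to 17300) also lay above all of MMPdKO growth plate. A fit with this score thus separates site from score poorly. With the mean log2 level of the neutrophil markers in the fit the Timp1 difference became -0.61 in MMP9-/- (adjusted p = 0.162) and -0.83 in MMPdKO mice (adjusted p = 0.0251), and the cortical difference in MMPdKO mice -0.29 (adjusted p = 0.776). With the fibrous score, which separates poorly from site, the first 2 became -2.12 in each genotype. Timp1 then also passed as lower in calvaria than in growth plate of WT (-1.30, adjusted p = 0.00937) and MMP2-/- mice (-1.20, adjusted p = 0.00977). The cause of the Timp1 difference was not tested.

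**Figure D3:**
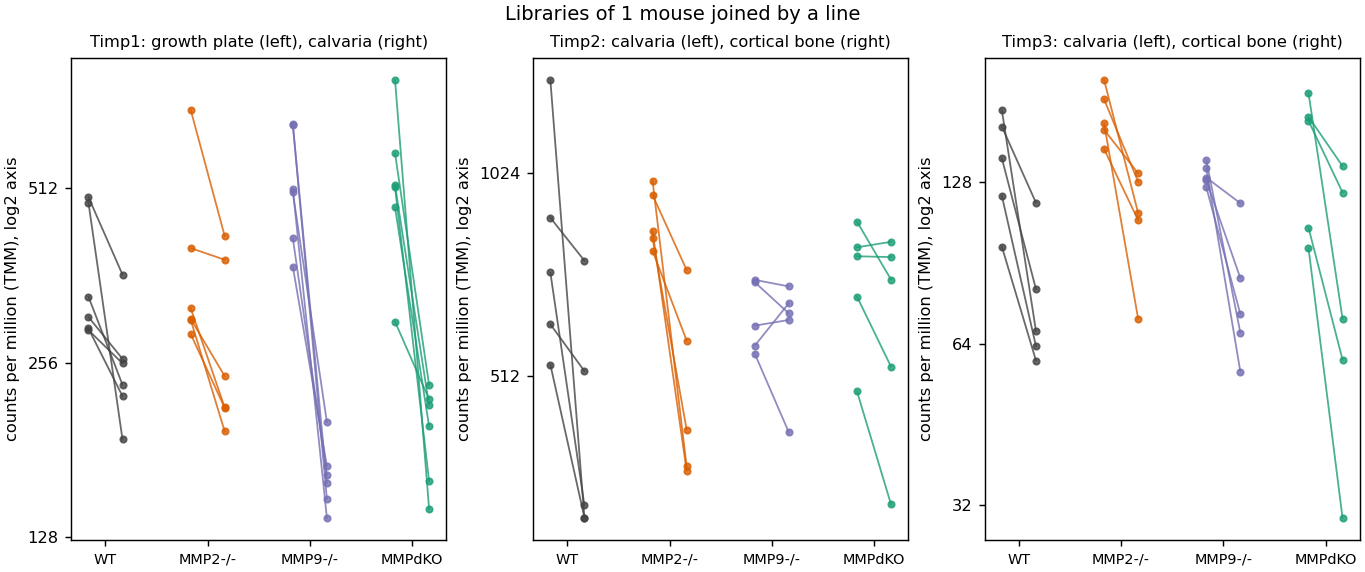
CPM (log2 axes) in 2 tissues of the same mouse, joined by a line and grouped by genotype: Timp1 in growth plate and calvaria (24 mice), Timp2 and Timp3 in calvaria and cortical bone (20 mice each). Every Timp1 line and every Timp3 line falls, and 17 of 20 Timp2 lines fall.

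Timp2 passed the test between sites in WT and MMP2-/- mice and in neither genotype without MMP9. In MMP2-/- mice its calvaria libraries (785.5 to 1137, median 949.8) lay above all 6 growth plate libraries (486.5 to 778.5, median 611.5) and above the cortical values of 371.3, 376.8, 427.0, 578.3 and 735.6. Cortical bone was 1.90-fold lower than calvaria (log2 -0.93 ± 0.21, adjusted p = 0.00212, with 1 of 4 members and 3.35% of all genes passing). Calvaria was 1.52-fold higher than growth plate (log2 0.60 ± 0.19, adjusted p = 0.0428, with 1 of 4 members and 5.65% of all genes passing, and 2.1% of all genes not overlapping). No member passed between cortical bone and growth plate of MMP2-/- mice, where 3.03% of all genes did. The call between calvaria and growth plate lay near the threshold: it was kept in 5 of 13 fits that left out 1 library, and with the mouse as a block the value was 0.57 (adjusted p = 0.0599).

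In MMP9-/- calvaria Timp2 ranged from 537.1 to 711.2 (median 608.5) and in growth plate from 549.3 to 987.9 (688.0). The means were thus in the other order, with log2 -0.20 and an interval from -0.56 to 0.16. In MMPdKO mice calvaria ranged from 486.6 to 867.6 (770.7) and growth plate from 642.7 to 959.9 (737.8), with log2 -0.13 (-0.49 to 0.23). With the fibrous score in the fit both differences passed, at -0.97 in MMP9-/- (adjusted p = 2.01e-06) and -0.84 in MMPdKO mice (adjusted p = 1.82e-05). The summed fibrous markers of calvaria and growth plate did not overlap (2296 to 4233 against 916.5 to 1663 in MMP9-/-, 2056 to 4040 against 901.7 to 2036 in MMPdKO mice). That fit thus separates site from score poorly. The test of the change itself, chosen after seeing the data, gave -0.95 ± 0.26 for MMP9-/- minus WT (adjusted p = 0.141) and -0.88 ± 0.26 for MMPdKO minus WT (adjusted p = 0.0713). Neither passed with edgeR, where 0.0265% and 0.548% of all genes did, and both passed with DESeq2 (adjusted p = 0.0438 and 0.0232). Without the WT libraries carrying the number 20, the MMPdKO value became -0.63 (adjusted p = 0.295). Over all sites and genotypes the interaction for Timp2 had an adjusted p of 0.229 by edgeR and of 0.0499 by DESeq2. Of the 36 such differences of differences over the 4 members, 0 passed with edgeR, 9 had an unadjusted p under 0.05, and 2 passed with DESeq2.

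The next comparison asked whether the loss of 1 or both gelatinases moved the inhibitors within a site. Timp2 rose in MMPdKO growth plate, and this was the only one of 36 tests of a member against WT to pass (7 had an unadjusted p under 0.05, DESeq2 passed 2). Timp2 ranged from 434.2 to 615.5 CPM in 7 WT growth plates (mean 511.3 ± 58.8) and from 642.7 to 959.9 in 7 MMPdKO growth plates (778.9 ± 113.4). Every MMPdKO library thus lay above every WT library. The rise was 1.52-fold (log2 0.61 ± 0.18, adjusted p = 0.0289), in a contrast where 8.01% of all genes passed and 1.4% did not overlap. Without WT replicate 1 or 3 or MMPdKO replicate 3 or 6 the adjusted p was 0.0642 to 0.0846.

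The other growth plate values were smaller against their error. Timp1 in MMPdKO growth plate was 0.74 ± 0.29 above WT on the log2 scale (adjusted p = 0.0904), Timp2 in MMP9-/- 0.49 ± 0.18 (adjusted p = 0.149) and Timp3 in MMP9-/- 0.60 ± 0.19 (adjusted p = 0.0857, and 0.0399 with DESeq2). In that last contrast 0.946% of all genes passed. In MMP2-/- growth plate no member passed (adjusted p = 0.627 to 0.967), where 0.0619% of all genes did. In calvaria and cortical bone the values of the 4 members lay between -0.50 and 0.48 and none passed. There few genes differed from WT at all: in calvaria 0.0708% of all genes passed in MMP2-/- and 0.0177% in each of the other genotypes, and in cortical bone 0.0354% passed in MMP2-/- and 0.0442% in each of the other genotypes. The value nearest to passing was Timp2 in MMPdKO cortical bone, 0.45 with an interval from 0.07 to 0.82 (adjusted p = 0.384).

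Marrow and vessel markers also differed in the growth plate. In MMPdKO against WT growth plate 6 of 11 neutrophil markers and 6 of 8 erythroid markers were lower and 5 of 8 endothelial markers were higher. Of the 12 chondrocyte markers 2 were higher (Ihh and Col10a1), none was lower and 10 did not pass. Neutrophil markers summed to 3235 to 9096 CPM in WT and 621.5 to 3444 in MMPdKO growth plate, and no marker was at 0. The sums of the 2 groups overlapped only from 3235 to 3444, so a fit with this score separates genotype from score poorly. With the neutrophil score in the fit the Timp2 value became 0.34 (adjusted p = 0.393) and that of Timp1 0.27 (adjusted p = 0.725). With the fibrous score Timp2 was 0.49 (adjusted p = 0.0186).

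**Figure D4:**
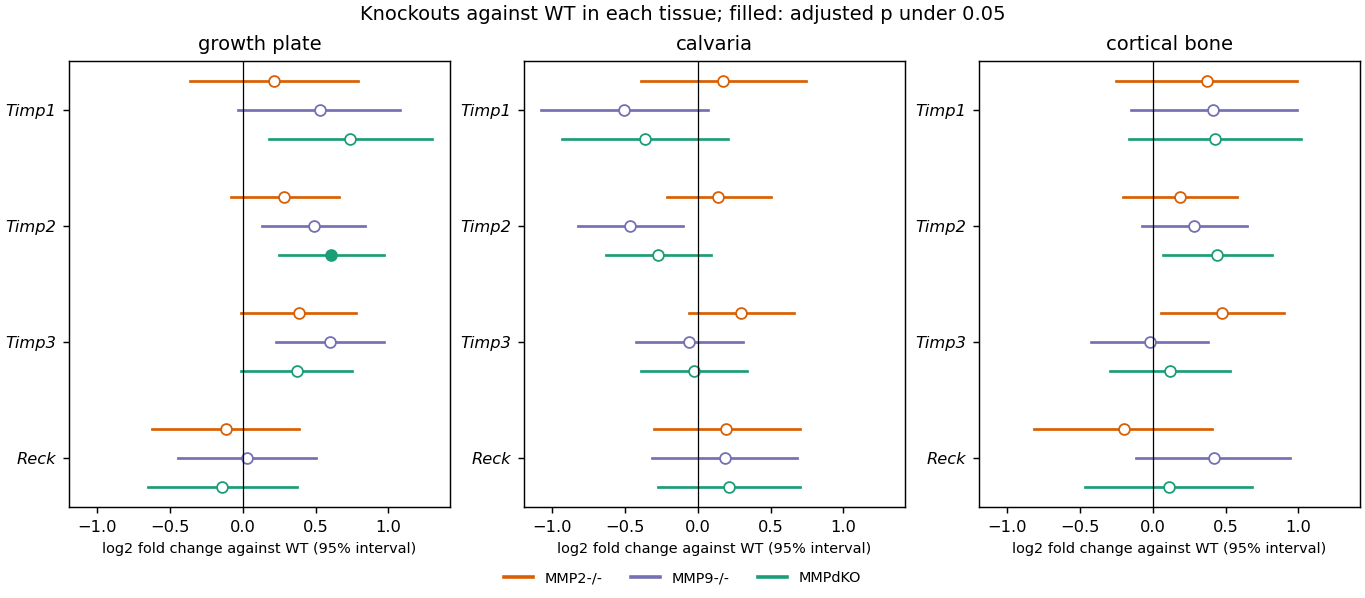
Log2 fold change of each knockout against WT in growth plate, calvaria and cortical bone (points, with 95% intervals). The filled point, Timp2 in MMPdKO growth plate (0.61), is the one that passed an adjusted p of 0.05. All other points are open, and those of calvaria and cortical bone lie between -0.50 and 0.48.

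MMPdKO mice were then set against each of the knockout lines that lack 1 enzyme. Of 24 tests of the members, 0 passed with edgeR, DESeq2 or limma-trend, and 1 had an unadjusted p under 0.05, Timp2 in calvaria against MMP2-/- (log2 -0.41 ± 0.18, adjusted p = 0.468). Of all genes 0.0973% passed against MMP2-/- and 0.0354% against MMP9-/- in growth plate, and 0.00884% to 0.0265% at the other sites. In growth plate Timp2 in MMPdKO differed from MMP9-/- by 0.12 (-0.24 to 0.48) and from MMP2-/- by 0.32 (-0.05 to 0.69). The test of whether both deletions together differ from the sum of each passed for no member at any site, where at most 0.00884% of all genes passed, with edgeR, and with DESeq2 the 1 interaction to pass was that of Timp2 over all sites. The smallest p was for Timp3 in growth plate, -0.61 ± 0.28 (adjusted p = 0.856).

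Reck was low everywhere and passed no test. Its group means ran from 14.0 ± 5.5 CPM in MMP2-/- cortical bone (values of 8.3, 9.3, 13.2, 18.3 and 20.9) to 22.9 ± 4.3 in MMP9-/- growth plate (16.3 to 28.2, median 22.6). All groups overlapped. Cortical bone had the lowest mean of the 3 sites in each genotype, by 0.54 against growth plate on the log2 scale in WT (interval 0.03 to 1.04) and 0.69 against calvaria in MMP2-/- mice (adjusted p = 0.235). In mice with both bones, Reck was higher in calvaria than in cortical bone in 14 of 20. A library at the median held 13 counts of Reck. The SE for WT cortical bone against calvaria was 0.26 for Reck and 0.18 for Timp2, so differences of Reck were measured less precisely.

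The members were also compared across all 80 libraries by their deviation from their group mean, which leaves out site and genotype. These correlations share library and depth and are given as descriptions. Timp1 and Timp2 deviated together (r = 0.74), Timp2 and Timp3 less (0.38), and Timp1 and Timp3 hardly (0.09). Reck followed none of them (-0.20 to 0.04). Mmp14, the membrane protease that Timp2 binds, deviated with Timp2 (0.84) and with Timp1 (0.78).

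Osteoblast markers had the highest r of the marker lists with Timp1 (0.81) and with Timp2 (0.78). Neutrophil markers (-0.57 and -0.54) and erythroid markers (-0.525 and -0.54) ran against Timp1 and Timp2. Timp2 also went with the fibrous markers (0.72). For Timp3 the highest r was that of the smooth muscle and pericyte markers (0.51), followed by skeletal muscle (0.41), and osteoblast markers gave 0.13.

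**Figure D5:**
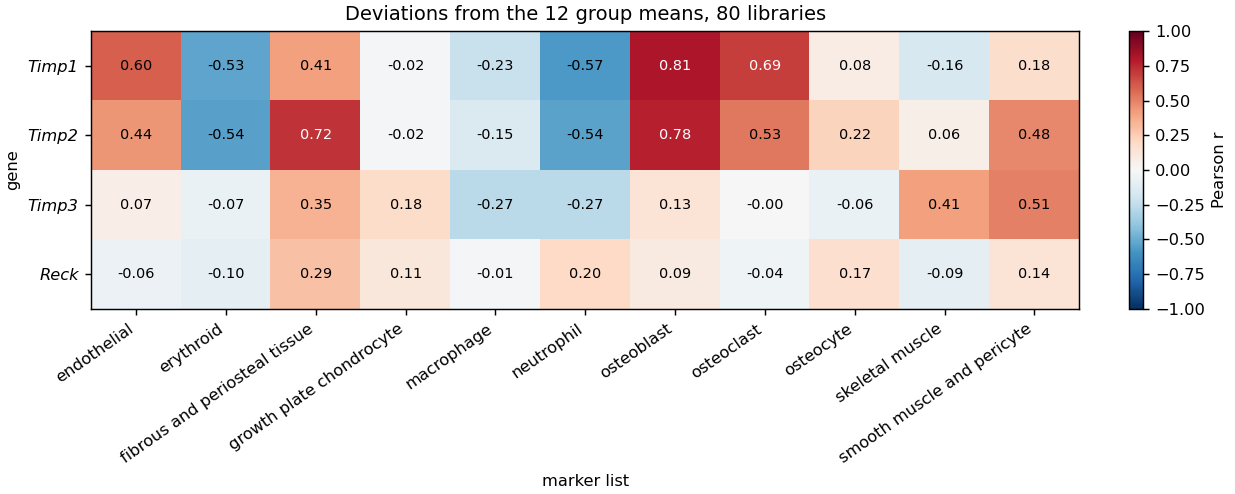
Pearson r between the deviations of each gene from its 12 group means and the deviations of the mean log2 level of 11 marker lists, over 80 libraries. Red is positive and blue negative. Timp1 and Timp2 are darkest red at osteoblast markers (0.81 and 0.78), Timp3 at smooth muscle and pericyte markers (0.51), and no value of Reck exceeds 0.29.

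Over the levels themselves, the 3 genes most like each member among 7612 genes with a median count of at least 10 were named. For Timp1 they were Fkbp10 (r = 0.91), Rhoc (0.91) and Fkbp11 (0.91), of which Fkbp10 encodes a collagen-folding protein of the endoplasmic reticulum. For Timp2 they were Htra1 (0.89), a secreted serine protease, Aebp1 (0.89), a collagen-binding matrix protein, and Lrp1 (0.89), the endocytic receptor that clears TIMPs and protease complexes. For Timp3 they were Angptl2 (0.79), Usp2 (0.73) and Fndc1 (0.71). For Reck the closest was Smoc2 (0.45), a matricellular protein, a weak likeness in sparse counts. By deviations the closest were Pcolce for Timp1 (0.87), Mfap2 for Timp2 (0.86), Angptl2 for Timp3 (0.63) and Smoc2 for Reck (0.55).

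The enzymes and partners of the inhibitors were counted from lists of each kind. Of 11 measured matrix metalloproteinases, Mmp15 (log2 1.38), Mmp14 (0.84, adjusted p = 0.0213) and the collagenase Mmp13 (1.32, adjusted p = 0.0414) were higher in MMPdKO than in WT growth plate, beside the loss of Mmp2 and Mmp9. In this contrast 8.01% of all genes passed in either direction. The median of the metalloproteinases was 0.24 on the log2 scale, against -0.006 over all genes tested. Of 11 partners and receptors 5 were higher in the same contrast and none lower, with a median of 0.45: Wnt7b (2.56), the ligand that Reck helps to read, Itgb1 (0.57) and Itga3 (1.57), the chains of an integrin that binds Timp2, Mmp14, which is in both lists, and Lrp1 (0.58). Of 11 ADAM and ADAMTS proteases Adam15 was higher (0.69). Of 16 other extracellular protease inhibitors Cst3, cystatin C, was higher (0.82, adjusted p = 0.00587).

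Between WT calvaria and cortical bone, 2 of the 11 metalloproteinases passed, Mmp2 (log2 -0.70, adjusted p = 0.0464) and Mmp19 (-1.12), both lower in cortical bone. Among partners Lrp1 (-0.96, adjusted p = 2.24e-05) and Adgra2 (-1.25, adjusted p = 8.02e-05), the receptor that works with Reck in WNT7 signalling, were lower in cortical bone too, and none were higher. In this contrast 6.83% of all genes passed. Adam33 (-1.23) and Adamts1 (-1.12) were lower among the ADAM and ADAMTS proteases. Of the 16 other inhibitors Spock2 (-2.35) and Serping1 (-0.91), the C1 inhibitor, were lower and Serpina3g (1.19) was higher. The medians were -0.58 for metalloproteinases, -0.72 for partners, -0.26 for ADAM and ADAMTS proteases and -0.21 for other inhibitors, against 0.015 over all genes tested.

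Between calvaria and growth plate of MMPdKO mice, where Timp1 was lower in calvaria, 5 metalloproteinases were lower (among them Mmp13 at -2.35 and Mmp14 at -1.09) and 1 higher. Of the partners 7 were lower, such as Wnt7b (-3.54) and Itgb1 (-0.61), and 2 were higher, among them Adgra2 (1.02). That is 6 of 11 metalloproteinases and 9 of 11 partners, where 29.6% of all genes passed in either direction, and the medians were -0.43 and -0.61 against 0.028 over all genes. In WT mice the same contrast passed for 1 lower (Mmp9) and 1 higher (Mmp19) metalloproteinase and for 1 partner, Adgra2 (1.24), where 5.24% of all genes passed.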

How the data were processed

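Bulk MARS-Seq libraries were made by the authors from 30 ng of RNA each. Per the labels and the methods, reads were aligned with STAR 2.7.3a to GRCm38 and counted with HTSeq on Ensembl genes. The deposited counts are whole numbers per gene, and the deposited normalized signal is those counts divided by 1 size factor a library (DESeq2 1.26.0). Of 14688 identifiers 14678 had a symbol. The main test was edgeR 4.0.16 (TMM, quasi-likelihood, all 80 libraries, 12 groups, no covariate) on 11307 genes with a count of at least 15 in 1 library or more, adjusted per contrast over all genes. There were 31 comparisons per member and 9 added after seeing the data. SE is the log2 value over the root of F, so for Reck, whose p is held to the Poisson limit, p can exceed what SE implies. Named genes were the members, of each list at most 4 a contrast, taken by lowest adjusted p (others by count; Mmp13 and Lrp1 in MMPdKO growth plate and the markers Ihh and Col10a1 were chosen after their values were seen), and the 3 closest by r. Members and lists were chosen with earlier results of these data known. Alternatives were RLE, other filters, limma-trend 3.58.1 on log2(normalized count + 1), DESeq2 1.42.0, scores as covariates and sample subsets. The fit was also run on simulated data as a check of the code, which does not bear on the calls given here. Mice named in the descriptions gave the pairing: deviations of libraries of 1 mouse correlated at a mean r of 0.0168 over 64 pairs. Title numbers mostly join different mice. Depth limits precision for Reck most.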

Additional observations from a re-analysis of the deposited data

Results flagged for a closer look

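A library stood apart from its group in 2 of 48 combinations of member and group examined, and chance alone flags about 1 in 20. Both concern Reck and a low value. In MMP9-/- cortical bone replicate 7 had 8.384 CPM (3 counts), where the nearest library had 17.8 and the highest 27.56. In WT calvaria replicate 4 had 9.454 CPM (3 counts), where the nearest library had 16.6 and the highest 24.7.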

How the results depend on the processing

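Of 31 planned and 9 added comparisons for each of 4 members, the counts of passed tests stayed at 4 in WT tissues, 8 in knockout tissues and 1 against WT with RLE, with a count of 15 in 5 libraries, without haemoglobin and muscle genes, without the library under 200000 counts and with limma-trend. Without a filter the knockout tissues gave 7. The WT tissue count became 0 without the WT libraries carrying the number 20. It became 1 with the fibrous score, where the 4 calls were lost and Timp1 between calvaria and growth plate passed instead. It was 1 with the replicate block by mouse and 2 in the same mice without the block. Those last 2 settings fit each genotype alone, with the mice that gave at least 2 tissues. The knockout tissue count became 5 with the muscle score, 6 with the neutrophil score, 11 with the fibrous score, 9 with DESeq2 or the replicate block by mouse, and 10 in the same mice without the block or with only the 2 groups compared. Against WT the count became 0 with the neutrophil score and 2 with DESeq2 or with only the 2 groups compared, which gave 3 in WT tissues. With DESeq2 1 interaction and 2 differences of differences passed. With the replicate block by title number the knockout tissue count was 7 and no other count changed. That block joins mostly different mice.

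Leaving out 1 library at a time gave 3 to 4 in WT tissues, 6 to 9 in knockout tissues, 0 to 1 against WT, 0 to 1 for differences of differences, and 0 for MMPdKO against the lines lacking 1 enzyme and for interactions, where comparisons without the library kept their call.

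With the fibrous score the sign turned for Timp2 in 6 comparisons: calvaria against growth plate in WT (-0.2493) and MMP2-/- (-0.1954), and cortical bone against calvaria in WT (0.0582), MMP2-/- (0.0484), MMP9-/- (0.6812, adjusted p = 0.00364) and MMPdKO mice (0.5451, adjusted p = 0.0237). The summed fibrous markers of calvaria did not overlap those of the other sites in any genotype, so this fit separates site from score poorly. The cause was not tested.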
